A study of Homo sapiens with 4 samples.

Results

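The genes described here encode the subunits of Polycomb repressive complexes and of SWI/SNF chromatin remodellers. They were the 47 rows, of 28285 in each table, whose gene symbol stood on a fixed list of subunits. By complex, 10 belong to PRC2, 15 to PRC1, 3 to PR-DUB and 19 to SWI/SNF. All 47 were found in all 4 tables and all passed the filter on low values, so every member was tested. For BMI1, with 2 rows under its symbol, the row of the gene's own identifier was used.

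H1 cells, an established line of human embryonic stem cells, were the source of the RNA and carried eGFP (enhanced green fluorescent protein) knocked into GATA2, a transcription factor gene of blood progenitors. Cells were differentiated and sorted as CD34+, CD31+ and CD43-, and then by eGFP. The GFP-positive group (eGFP+, labelled hemogenic endothelium, from which blood cells emerge) and the GFP-negative group (eGFP-, labelled endothelial cells) had 2 libraries each. Every sample of both groups carried the knock-in, every title also names Cre, whose use is not explained, and every source name says hemogenic endothelium. Neither the number of knock-in clones nor whether the replicates were separate cultures is stated, so p-values reflect only how far these libraries differ, which may be a technical spread.

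Polycomb proteins keep developmental genes silent. PRC2 methylates lysine 27 of histone H3 through its catalytic subunit EZH1 or EZH2. PRC1 ubiquitinates histone H2A through RING1 or RNF2, with a PCGF protein as partner. Canonical PRC1 also holds a CBX protein, which reads the PRC2 mark, and a PHC protein, whereas variant PRC1 forms without them. PR-DUB, made of BAP1 and an ASXL protein, removes the ubiquitin. SWI/SNF complexes use the ATPase SMARCA4 or SMARCA2 to move nucleosomes and are known to oppose Polycomb at many genes. They come as BAF (with ARID1A or ARID1B and a DPF protein), PBAF (with ARID2, PBRM1 and BRD7) and non-canonical BAF (with BRD9). Most slots can be filled by alternative paralogues, which differ between cell types.

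Levels are TPM, a scaled share of a library's transcripts that corrects for gene length, so levels of different genes can be compared. Differences are log2 fold changes of GFP-positive over GFP-negative cells on the log2(TPM + 1) scale, which understates changes of low genes. They come from limma, a linear model fitted over 15425 genes, with Benjamini-Hochberg adjustment over all of them. TPM keeps no read depth, so counting error cannot be given. Across genes, the correlation of log2 values was 0.926 and 0.939 between libraries of a group and 0.904 to 0.921 between groups. GATA2, by whose reporter the cells were sorted, had 302 and 385 TPM in the GFP-positive libraries and 80.2 and 87.3 TPM in the GFP-negative libraries. The endothelial gene CDH5 (VE-cadherin) was present in all libraries, at 314 to 767 TPM, while PTPRC, the gene of the pan-leukocyte antigen CD45, had at most 2.64 TPM. SPN, the gene of CD43, had 9.66 to 16.9 TPM in these cells sorted as CD43-. In bulk RNA, fewer cells of a type and less RNA per cell cannot be told apart.

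No subunit gene passed an adjusted p of 0.05 in limma, against 0.447% of all genes tested (69 of 15425, with 0.123% higher and 0.324% lower in GFP-positive cells). At an unadjusted p under 0.05 there were 7 of the 47 (14.9%), beside 14.1% of all genes tested. These 7 were SMARCD3, SMARCA2, DPF3 and DPF2, with higher levels in GFP-positive cells (4 of 47, beside 6.69% of all genes), and PCGF1, CBX2 and PHC2, with lower levels (3 of 47, beside 7.38%). An absolute log2 fold change under 0.5 was found for 36 members (76.6%), beside 66.2% of all genes. The groups' libraries did not overlap for 22 members (46.8%), beside 44.3% of all genes. By direction, 15 were higher in GFP-positive cells (31.9%, beside 22.8% of all genes) and 7 lower (14.9%, beside 21.5%). With upper quartile or median-of-ratios scaling, 12 were higher (25.5%, beside 20.5% and 21.5%) and 7 lower (14.9%, beside 23.5% and 22.6%). Both a log2 fold change of at least 0.5 in size and groups apart were found for 11 (23.4%), beside 25.8% of all genes, with 7 higher (12.3% of all genes) and 4 lower (13.5%). In either direction together, the members' counts of small p-values and of separated groups lay near those of all genes, and the description below concerns which slots of the complexes the largest values fell in.

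**Figure D1:**
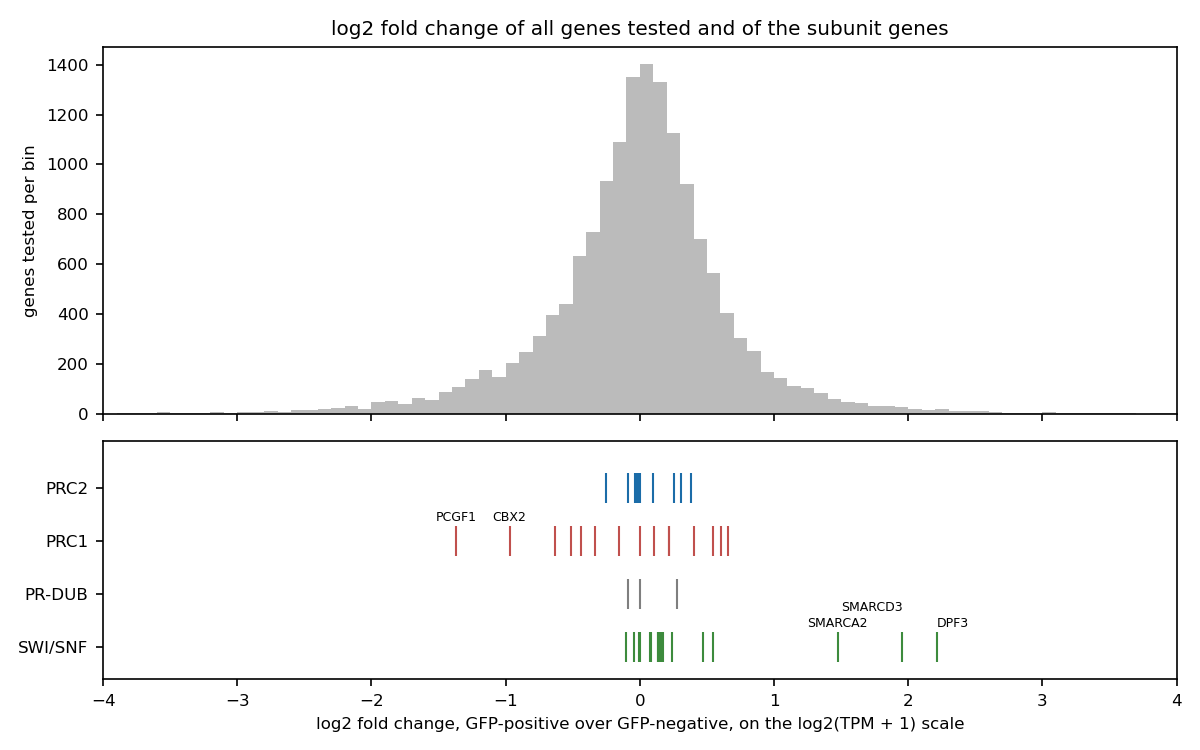
The upper panel counts all genes tested by log2 fold change (GFP-positive over GFP-negative, bins of 0.1; 25 genes lie beyond the axis), and the lower panel marks each subunit gene as a tick in its complex's row. PRC2 and PR-DUB genes sit close to 0, PRC1 genes spread to both sides, and SMARCA2, SMARCD3 and DPF3 lie far to the right.

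For PRC2 genes the estimated differences between groups were small, though some intervals were wide. The median log2 fold change over its 10 genes was -0.01, beside 0.02 over all genes tested, and the values ran from -0.25 (RBBP7) to 0.38 (MTF2). Groups did not overlap for 2 of the 10, RBBP4 and RBBP7 (20.0%, beside 44.3% of all genes). EZH2, the main methyltransferase of dividing cells, had 56.5 and 55.8 TPM in the GFP-positive libraries and 58.7 and 53.9 TPM in the GFP-negative libraries. All 4 values lay together, and the 95% interval of the EZH2 log2 fold change ran from -0.45 to 0.45. It was the member nearest to no difference in the PRC2 core. Its paralogue EZH1, usually linked to non-dividing cells, had 17.3 and 37.0 TPM against 39.4 and 16.4 TPM. Each group held a high and a low EZH1 library, and the interval, from -1.28 to 1.26, does not settle whether its level differed. EZH2 took 76.6% and 60.2% of the EZH1 and EZH2 transcripts in GFP-positive libraries and 59.8% and 76.6% in GFP-negative libraries, so it was the more abundant of the pair in all 4.

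The other PRC2 core genes differed in level far more than between groups. EED, which binds the methyl mark, ranged from 7.79 to 19.3 TPM and SUZ12, the scaffold, from 23.0 to 32.0 TPM, both with overlapping groups. The interval of EED, from -1.19 to 1.14, does not settle whether its level differed. RBBP4, a histone chaperone shared with other complexes, had the highest mean over the 4 libraries of all 47 members, with 307 and 308 TPM in GFP-positive libraries and 223 and 278 TPM in GFP-negative libraries. In GFP-negative replicate 1 it lay below SMARCA4, SMARCE1 and SMARCD1. For its paralogue RBBP7 the order was the opposite, with 110 and 124 TPM against 130 and 149 TPM. RBBP4 thus took 72.5% ± 1.68 (SD, n = 2) of the pair in GFP-positive cells and 64.1% ± 1.36 in GFP-negative cells, without overlap. The single differences did not pass (limma adjusted p = 0.447 for RBBP4 and 0.556 for RBBP7). RBBP4 has 6 named pseudogenes in GENCODE v29, and 18.0% of its exonic bases lie opposite SYNC, whose level was at most 1.24 TPM. With 2 libraries per group, an exact two-sided permutation test of any share cannot give less than p = 0.333, so the paralogue shares are a description.

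Accessory subunits, which direct PRC2 to its sites, also had small estimated differences. JARID2, the cofactor of PRC2.2, ranged from 22.4 to 25.6 TPM, and PHF1, MTF2 and PHF19, the Polycomb-like proteins of PRC2.1, ranged from 43.1 to 116 TPM. Groups overlapped for all 4. MTF2 had the largest difference, 77.3 and 48.2 TPM against 43.1 and 50.3 TPM, and rested on the high value in GFP-positive replicate 1. On the log2 scale it was 0.38 ± 0.27 (SE; limma adjusted p = 0.604), and 0.05 without that library.

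Because EZH2 and several partners are known to follow the cell cycle, 22 cell-cycle genes were set beside PRC2. Their median was 0.27 on the log2 scale, beside 0.02 over all genes tested, and 0 of 22 passed. Groups did not overlap for 8 with higher and 3 with lower levels in GFP-positive cells, beside 22.8% and 21.5% of all genes. MKI67, the proliferation marker, had 60.5 and 55.1 TPM against 50.2 and 41.6 TPM. Summed, they stood at 2837 and 2345 TPM in GFP-positive and 2527 and 2158 TPM in GFP-negative libraries, which overlap.

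**Figure D2:**
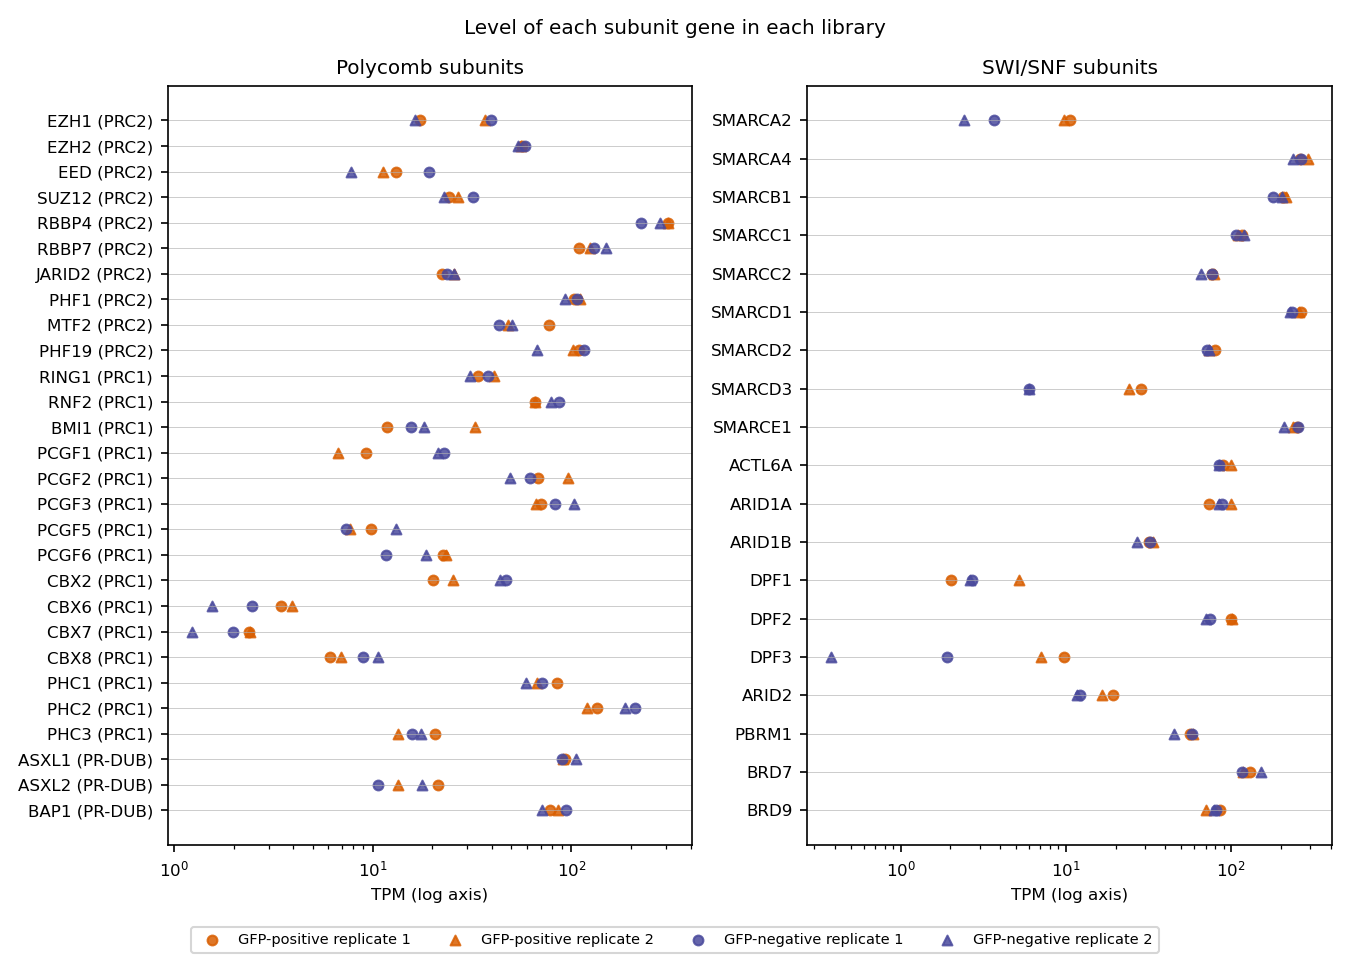
Level of each subunit gene in TPM, on a log axis, with a symbol for each library (orange GFP-positive, blue GFP-negative; circle replicate 1, triangle replicate 2). Orange and blue symbols are apart for SMARCA2, SMARCD3 and DPF3 on the right and for PCGF1, CBX2 and PHC2 on the left, and close together for most other genes.

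PRC1 genes were spread to both sides. Their median log2 fold change was 0.00, but the values ran from -1.37 (PCGF1) to 0.66 (CBX6), and groups did not overlap for 4 genes with higher and 6 with lower levels in GFP-positive cells. Of the 15, that is 26.7% and 40.0%, beside 22.8% and 21.5% of all genes tested. In total, PRC1 genes had 563 and 578 TPM in the GFP-positive libraries and 682 and 655 TPM in the GFP-negative libraries. PHC2 had the widest gap in TPM of the 15.

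Both catalytic subunits were present in every library. RNF2, the more abundant E3 ligase, had 65.3 and 65.5 TPM in GFP-positive libraries against 87.0 and 78.8 TPM in GFP-negative libraries. The groups were apart, but at -0.34 ± 0.17 on the log2 scale limma did not call it (adjusted p = 0.452). RING1 had 33.9 and 40.7 TPM against 37.9 and 31.1 TPM, with overlapping groups and an interval from -0.47 to 0.69. RNF2 accordingly took 63.8% ± 2.94 of the pair in GFP-positive cells and 70.7% ± 1.46 in GFP-negative cells (SD, n = 2).

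PCGF proteins decide which form of PRC1 assembles. The largest difference of all Polycomb genes was that of PCGF1, the partner in the variant complex with KDM2B and BCOR that binds unmethylated CpG islands. It had 9.32 and 6.74 TPM in GFP-positive libraries and 22.8 and 21.5 TPM in GFP-negative libraries. Both GFP-positive values lay under 10 TPM and both GFP-negative values above 20 TPM. On the log2 scale the difference was -1.37 ± 0.34 (SE; limma adjusted p = 0.162), with an interval from -2.19 to -0.55 before adjustment for the number of genes, and it ran from -1.58 to -1.16 with each library left out in turn. Its partners differed less. KDM2B had 49.3 and 61.5 TPM against 64.2 and 65.7 TPM, apart and lower in GFP-positive cells (-0.23 ± 0.20; limma adjusted p = 0.677). BCOR had 66.9 and 70.2 TPM against 60.3 and 55.6 TPM, apart and higher (0.24 ± 0.18; limma adjusted p = 0.625).

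Other PCGF genes went either way. PCGF2 (MEL18), of canonical PRC1, had 67.7 and 96.5 TPM against 61.8 and 49.1 TPM (log2 fold change 0.55 ± 0.24; limma adjusted p = 0.394), higher in both GFP-positive libraries. PCGF6, of the variant complex with MGA and E2F6, also did, with 22.6 and 23.4 TPM against 11.7 and 18.5 TPM (0.61 ± 0.33; limma adjusted p = 0.476). PCGF3 lay the other way, with 70.1 and 66.1 TPM against 82.5 and 104 TPM (-0.44 ± 0.19; limma adjusted p = 0.382). Its paralogue PCGF5 ranged from 7.36 to 13.1 TPM with overlapping groups. BMI1, the stem cell regulator that shares the canonical slot with PCGF2, ranged from 11.8 to 32.8 TPM, both extremes being GFP-positive libraries. GENCODE places 23.3% of its exonic bases also in COMMD3-BMI1, a read-through gene listed under the same symbol at 9.76 to 28.4 TPM, so reads may have been divided between these rows. PCGF2 took 72.9% to 85.2% of the BMI1 and PCGF2 transcripts, and was thus the main canonical PCGF gene in all 4 libraries. The read-through row was left out of this share, which would be smaller with that row added.

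CBX genes, the readers of H3 lysine 27 methylation, had groups apart for all 4 members, beside 44.3% of all genes. They lay 2 in each direction. CBX2 had 20.2 and 25.3 TPM in GFP-positive libraries and 46.7 and 44.0 TPM in GFP-negative libraries. Both GFP-negative values were well above both GFP-positive ones, yet limma did not call the difference, -0.97 ± 0.24 on the log2 scale (adjusted p = 0.163). CBX8 had 6.09 and 6.98 TPM against 8.94 and 10.6 TPM (-0.51 ± 0.38; limma adjusted p = 0.623), also lower in GFP-positive cells. These genes are close neighbours on chromosome 17 (GENCODE v29, GRCh38), CBX2 at 79778132 to 79787983 on the plus strand and CBX8 at 79792132 to 79801683 on the minus strand.

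CBX6 and CBX7 lay the other way at low levels. CBX6 had 3.46 and 3.92 TPM against 2.47 and 1.55 TPM (log2 fold change 0.66 ± 0.49; limma adjusted p = 0.623). CBX7 had 2.39 and 2.42 TPM against 1.98 and 1.23 TPM, and its fold change was smaller still, at 0.40 ± 0.50 (limma adjusted p = 0.801). Values of a few TPM may rest on few reads, and 17.9% of the exonic bases of CBX7 lie opposite another gene. Of the summed TPM of CBX2, CBX6, CBX7 and CBX8, CBX2 took 64.2% ± 1.85 in GFP-positive and 77.2% ± 0.749 in GFP-negative cells (SD, n = 2). The CBX6 share was 10.5% ± 0.426 against 3.40% ± 0.995. CBX2 was therefore the leading gene of the family in both groups, with a smaller share in GFP-positive cells.

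PHC proteins join canonical PRC1 complexes into larger assemblies. PHC2, the most abundant PRC1 gene, had 135 and 119 TPM in GFP-positive libraries and 208 and 187 TPM in GFP-negative libraries. This was a clear gap relative to the spread within groups, but limma did not call it (-0.64 ± 0.15 on the log2 scale; adjusted p = 0.159). With each library left out in turn it ran from -0.72 to -0.55. PHC1 had 84.9 and 67.0 TPM against 71.2 and 59.1 TPM, and PHC3 ranged from 13.5 to 20.6 TPM, both with overlapping groups. PHC2 took 57.9% ± 2.55 of PHC transcripts in GFP-positive cells against 70.8% ± 0.294 in GFP-negative cells, and PHC1 34.4% ± 1.27 against 23.3% ± 1.22 (SD, n = 2). GENCODE has 18.1% of the exonic bases of PHC1 opposite M6PR, which had 300 and 290 TPM against 186 and 204 TPM. Counting by strand is not stated, so part of the PHC1 value could be M6PR. The part of M6PR in the PHC1 value was not tested.

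The genes of PR-DUB, which counters PRC1, did not differ beyond their spread. BAP1, the deubiquitinase, had 78.2 and 85.5 TPM against 93.5 and 71.2 TPM, and its interval ran from -0.48 to 0.49. ASXL1, which took 81.2% to 89.4% of ASXL1 and ASXL2 transcripts, ranged from 89.9 to 105 TPM. ASXL2 ranged from 10.6 to 21.4 TPM. Groups overlapped for all 3.

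Endothelial genes were set beside the PRC1 genes with lower levels in GFP-positive cells. All 16 listed endothelial genes had libraries apart and lower in GFP-positive cells, beside 21.5% of all genes. Of them, 2 passed the threshold (RAMP2 and PLVAP), and the 16 had a median of -1.06 on the log2 scale. Their summed level was 5005 and 5223 TPM in GFP-positive libraries against 9670 and 8292 TPM in GFP-negative libraries, and no marker was at 0 in all libraries. Their part in the PCGF1, CBX2 and PHC2 values was not tested.

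The RefSeq promoter windows (GRCh38.p14) of PCGF1 and PHC2, which were among the members furthest lower in GFP-positive cells, are shown as the 250 bases before the gene's annotated start; deposited values are per gene and do not say which start was used. Capitals mark matches, on either strand, to the GATA motif GATAAG, the RUNX motifs TGTGGT and TGCGGT, the ETS motif CCGGAA or the E2F motifs TTTGGCGC and TTTCCCGC.
PCGF1, chr2:74507696-74507945, minus strand: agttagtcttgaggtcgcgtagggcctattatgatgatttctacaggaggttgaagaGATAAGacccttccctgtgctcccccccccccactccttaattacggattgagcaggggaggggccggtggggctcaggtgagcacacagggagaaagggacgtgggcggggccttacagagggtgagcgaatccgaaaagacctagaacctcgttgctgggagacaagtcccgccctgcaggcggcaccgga
PHC2, chr1:33431096-33431345, minus strand: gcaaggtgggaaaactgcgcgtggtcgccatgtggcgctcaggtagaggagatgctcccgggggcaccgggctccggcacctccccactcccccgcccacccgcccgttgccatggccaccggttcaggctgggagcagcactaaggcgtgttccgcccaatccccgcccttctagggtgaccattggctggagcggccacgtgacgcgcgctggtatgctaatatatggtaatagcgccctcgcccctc
The PCGF1 window holds a GATAAG match, in the sense direction, starting 193 bases before the start. It was the only one among the 40 members with a window, while 5.6% of all 35116 windows hold one. The PHC2 window holds none of these motifs. Among member windows, 6 hold a RUNX motif, 8 an ETS motif and 2 an E2F motif, beside 16.3%, 14.5% and 1.9% of all windows. The member windows were rich in CpG, with a median of 27 CpG against 11 over all windows. A match is a description of letters and not evidence of binding.

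SWI/SNF genes lay slightly higher in GFP-positive cells as a group, and 3 of them lay far higher. Of the 19, 15 had a log2 fold change above 0, beside 51.8% of all genes, and the median was 0.15, beside 0.02 over all genes. Groups did not overlap for 10 (52.6%) with higher levels in GFP-positive cells, beside 22.8% of all genes, and for 0 with lower levels, beside 21.5%. With upper quartile or median-of-ratios scaling, 7 of the 19 (36.8%) were apart, beside 20.5% and 21.5% of all genes, and 15 were still above 0. None passed in limma. In total, SWI/SNF genes had 1890 and 1905 TPM in GFP-positive libraries and 1747 and 1701 TPM in GFP-negative libraries.

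**Figure D3:**
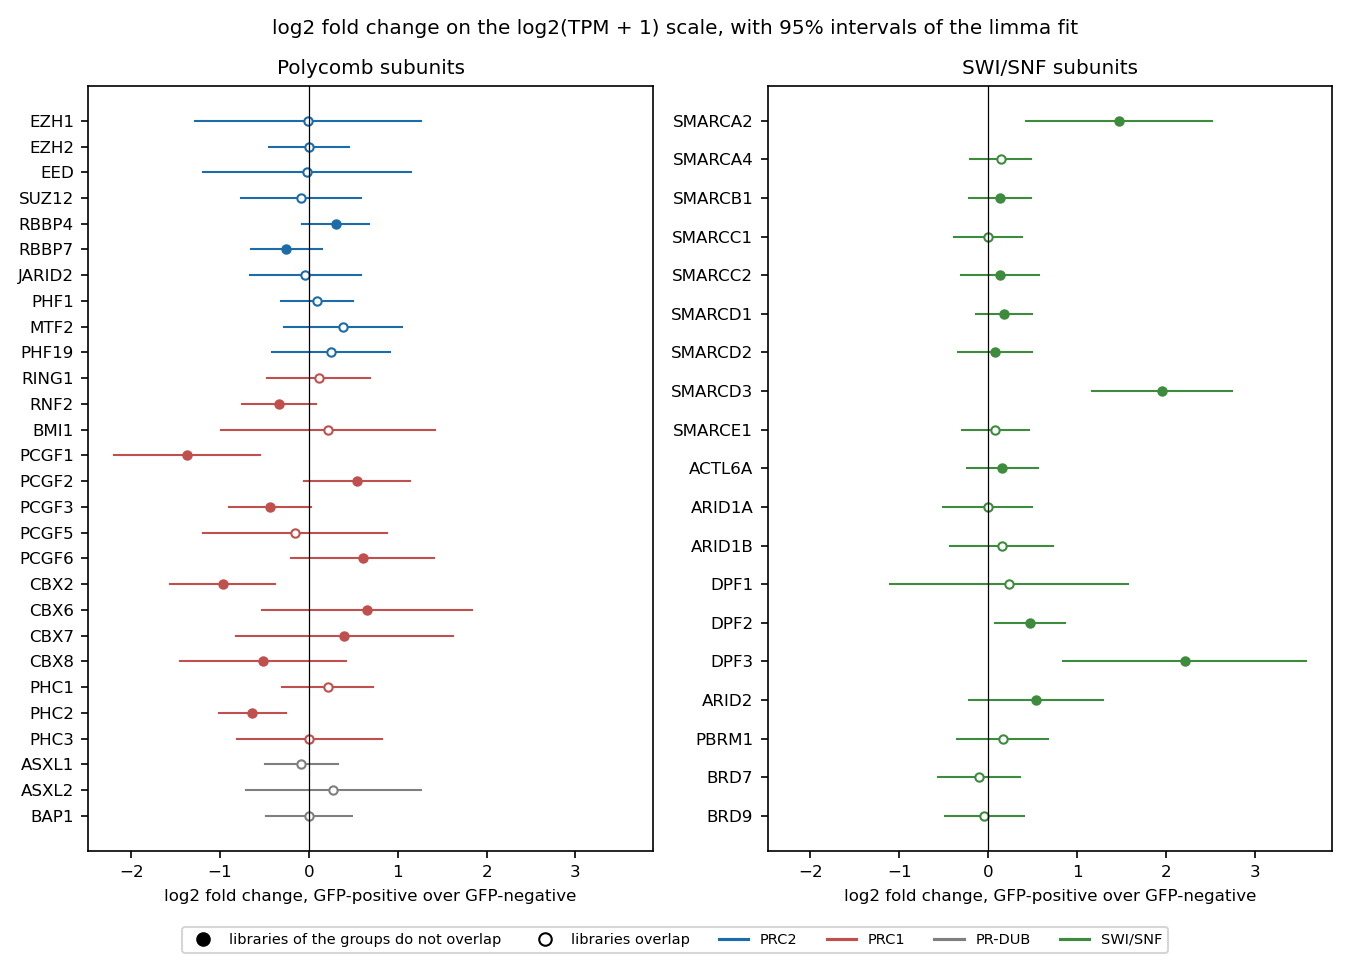
log2 fold change of each subunit gene (GFP-positive over GFP-negative) with its 95% interval from limma, not adjusted for the number of genes; filled points have groups that do not overlap, open points groups that do. Most SWI/SNF intervals hold 0, with points just right of it, and those of SMARCA2, SMARCD3, DPF2 and DPF3 lie wholly above 0.

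SMARCA4 (BRG1), the ATPase needed for early blood and vessel development, took almost all of the ATPase transcripts. It had 261 and 293 TPM in GFP-positive libraries and 265 and 237 TPM in GFP-negative libraries. These values overlap, and the interval of the SMARCA4 log2 fold change, -0.21 to 0.49, leaves out a doubling in either direction. SMARCA2 (BRM), the alternative ATPase, had 10.6 and 9.67 TPM against 3.65 and 2.43 TPM. Both GFP-positive values were more than 2 times both GFP-negative ones. At 1.48 ± 0.43 (SE) on the log2 scale, limma did not call it (adjusted p = 0.215), and the value was 1.26 to 1.69 with each library left out. Even so, SMARCA2 took only 3.54% ± 0.484 of the ATPase transcripts in GFP-positive cells, against 1.19% ± 0.245 in GFP-negative cells (SD, n = 2).

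Among the SMARCD (BAF60) subunits, which link the complex to transcription factors, the minor paralogue differed. SMARCD3 (BAF60C), best known from heart and muscle, had 28.3 and 24.2 TPM in GFP-positive libraries and 6.01 and 6.0 TPM in GFP-negative libraries. The values within each group were close and the groups far apart. The log2 fold change of 1.96 ± 0.32 (SE; a fold of 3.88 on that scale) had the smallest adjusted p of all members (limma adjusted p = 0.077). Without any single library it ran from 1.85 to 2.07 (limma adjusted p = 0.146 to 0.215). SMARCD3 passed when genes with a mean TPM of 5 or less were left out (limma adjusted p = 0.0462, where 1.39% of genes passed) and with the replicate number as a block (limma adjusted p = 0.023, where 3.86% passed), though the numbers were not shown to pair the libraries. The gene lies on chromosome 7, 151238764 to 151277896, minus strand (GENCODE v29, GRCh38). Of its exonic bases, 13.8% lie opposite other genes, among them CHPF2, which had 25.9 and 31.6 TPM against 27.2 and 27.2 TPM.

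Its paralogues were steadier. SMARCD1 (BAF60A) had 265 and 256 TPM against 234 and 227 TPM, apart but differing by only 0.17 ± 0.13 on the log2 scale (limma adjusted p = 0.623), and SMARCD2, needed in granulocyte formation, ranged from 71.9 to 80.3 TPM. SMARCD3 took 7.22% ± 0.516 of SMARCD transcripts in GFP-positive cells and 1.94% ± 0.0244 in GFP-negative cells (SD, n = 2), and SMARCD1 71.7% ± 1.12 against 74.6% ± 0.607.

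DPF proteins (BAF45) bind acylated histone H3 in BAF. DPF3, known from heart and muscle development, had 9.69 and 7.05 TPM in GFP-positive libraries and 1.90 and 0.38 TPM in GFP-negative libraries. It had the largest log2 fold change of all members, 2.21 ± 0.56, but its GFP-negative values were low and differed, and it did not pass (limma adjusted p = 0.173). Without GFP-negative replicate 1 the value was 2.75 and without GFP-negative replicate 2 it was 1.68. DPF2, the ubiquitous paralogue, had 99.5 and 102 TPM against 74.3 and 70.5 TPM. Its groups were apart and tight, at 0.47 ± 0.16 on the log2 scale (limma adjusted p = 0.281). DPF1, the neuronal paralogue, ranged from 2.01 to 5.22 TPM with overlapping groups. DPF3 made up 7.44% ± 1.79 of DPF transcripts in GFP-positive cells and 1.46% ± 1.34 in GFP-negative cells, and DPF2 89.4% ± 0.163 against 95% ± 1.23 (SD, n = 2).

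**Figure D4:**
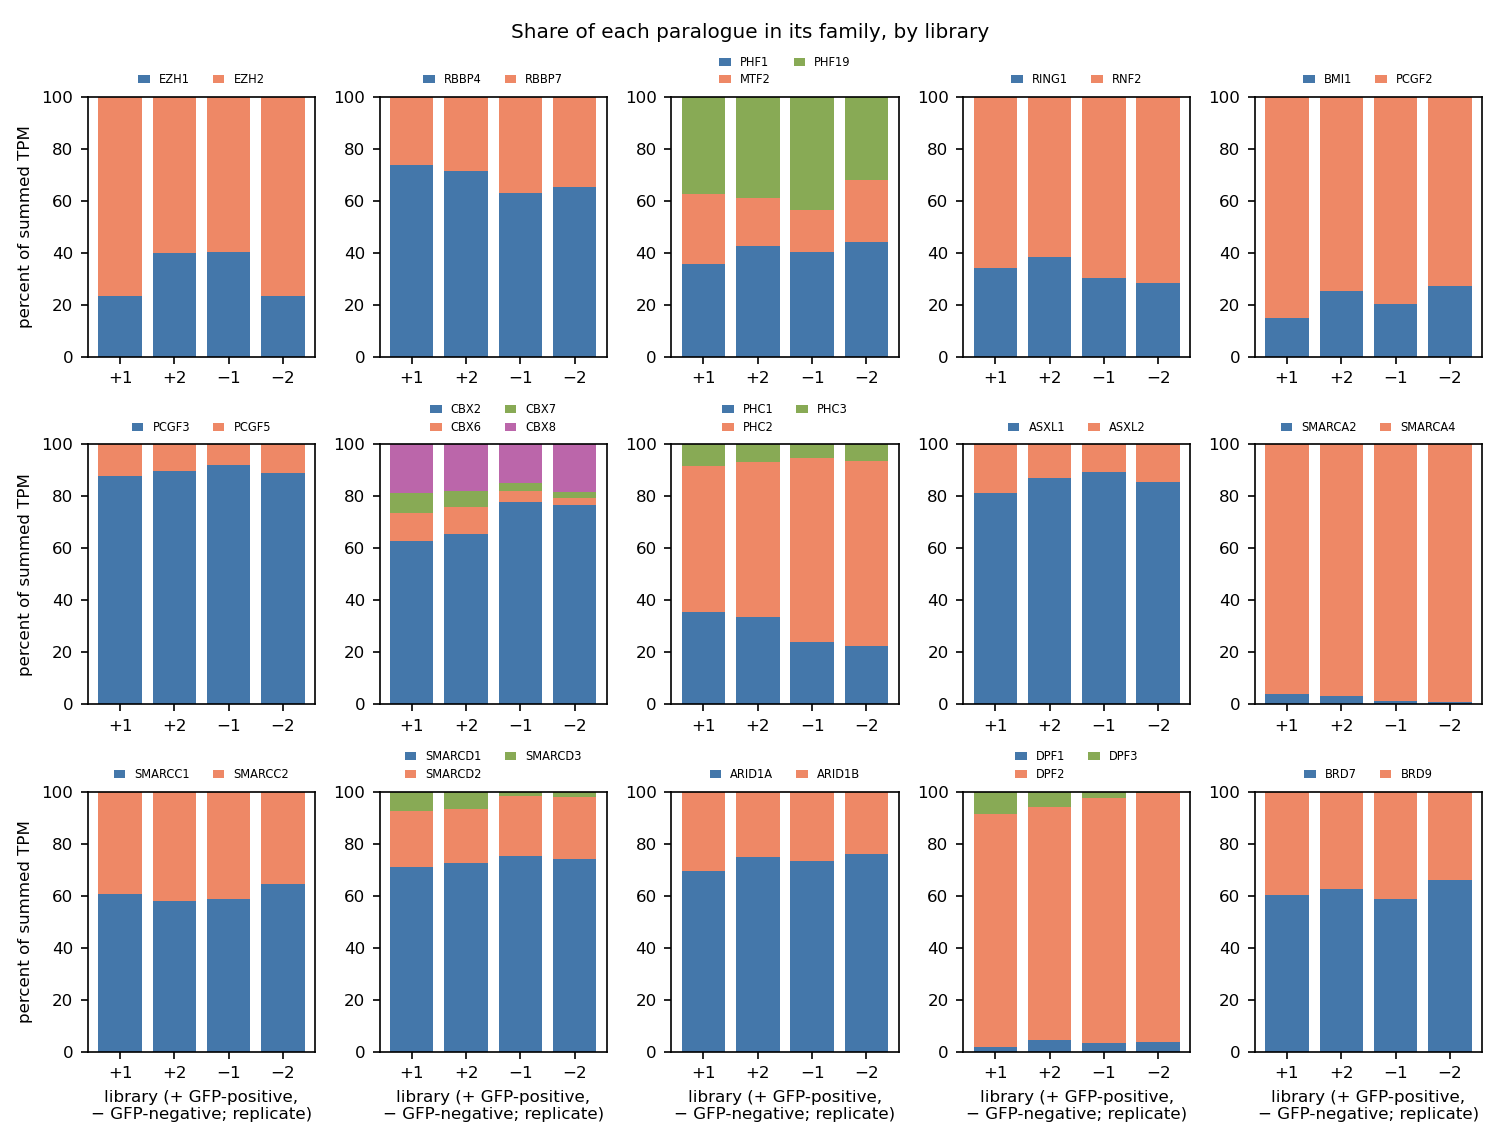
Share of each paralogue in the summed TPM of its family, in percent, as stacked bars for each library (+ GFP-positive, − GFP-negative, with the replicate number). The thin SMARCA2, SMARCD3 and DPF3 segments are larger in the GFP-positive bars, CBX2 and PHC2 take more of the GFP-negative bars, and the EZH1 share differs as much within groups as between them.

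Windows of the 3 SWI/SNF genes with the largest differences are shown for the same reason and with the same capitals as above.
SMARCA2, chr9:2015097-2015346, plus strand: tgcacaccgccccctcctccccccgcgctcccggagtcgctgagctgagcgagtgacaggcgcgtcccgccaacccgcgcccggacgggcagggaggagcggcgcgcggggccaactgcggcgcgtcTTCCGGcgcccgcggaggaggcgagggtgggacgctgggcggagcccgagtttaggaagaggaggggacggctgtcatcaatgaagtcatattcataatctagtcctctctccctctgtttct
SMARCD3, chr7:151277150-151277399, minus strand: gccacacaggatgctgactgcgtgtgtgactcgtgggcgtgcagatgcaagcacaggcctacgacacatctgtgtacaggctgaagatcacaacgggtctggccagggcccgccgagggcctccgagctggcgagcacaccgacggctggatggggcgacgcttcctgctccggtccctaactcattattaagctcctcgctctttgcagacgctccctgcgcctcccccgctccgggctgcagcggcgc
DPF3, chr14:72894102-72894351, minus strand: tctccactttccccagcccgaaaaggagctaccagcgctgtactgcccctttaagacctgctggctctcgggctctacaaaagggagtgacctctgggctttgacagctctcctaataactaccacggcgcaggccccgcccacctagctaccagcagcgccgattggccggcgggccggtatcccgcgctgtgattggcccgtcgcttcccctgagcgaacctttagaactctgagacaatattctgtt
SMARCA2 has an ETS match and the windows of SMARCD3 and DPF3 hold none of the motifs. The 3 genes have 63, 15 and 12 annotated starts in GENCODE v29, so other starts may have been used.

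Most core and shared SWI/SNF subunits had high and nearly equal levels. Groups were apart for 6 of the 8, all higher in GFP-positive cells (75.0%, beside 22.8% of all genes), but for only 3 (37.5%, beside 20.5% and 21.5%) with upper quartile or median-of-ratios scaling. As deposited, the nearest libraries of the groups were almost equal for SMARCC2 (76.15 and 76.14 TPM) and SMARCD2 (73.04 and 73.01 TPM). SMARCB1 (SNF5) ranged from 179 to 214 TPM, SMARCE1 (BAF57) from 208 to 255 TPM, ACTL6A (BAF53A) from 84.3 to 99.6 TPM and SMARCC2 from 65.7 to 79.2 TPM. SMARCC1 (BAF155) was the core gene nearest to no difference, with 117 and 110 TPM in GFP-positive libraries and 107 and 120 TPM in GFP-negative libraries. Its interval ran from -0.39 to 0.39. SMARCC1 took 58.1% to 64.6% of the SMARCC1 and SMARCC2 transcripts, with overlap between groups. SMARCE1 has 7 named pseudogenes, and 19.8% of its exonic bases are shared with another annotated gene on its strand.

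Members that define BAF, PBAF and non-canonical BAF had groups apart for ARID2, DPF2 and DPF3 and overlapping groups for the other 6. Those apart were all higher in GFP-positive cells. They were 40.0% of the BAF and 33.3% of the PBAF members, beside 22.8% of all genes. ARID1A, the large DNA-binding subunit of BAF, had 73.0 and 100.2 TPM against 87.7 and 84.2 TPM, and its interval ran from -0.51 to 0.50. ARID1A took 69.6% to 75.8% of the ARID1A and ARID1B transcripts. ARID2, its counterpart in PBAF, had 19.3 and 16.6 TPM against 12.3 and 11.7 TPM (log2 fold change 0.54 ± 0.31; limma adjusted p = 0.503), higher in both GFP-positive libraries. The other PBAF genes, PBRM1 at 45.2 to 58.6 TPM and BRD7 at 116 to 152 TPM, overlapped between groups, as did BRD9 of non-canonical BAF, at 70.4 to 85.4 TPM. For BRD7, 42.4% of the exonic bases lie opposite other genes, among them ADCY7, at 16.4 to 34.1 TPM.

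Marker genes of other cell types were set beside SMARCD3, SMARCA2 and DPF3. Of 17 erythroid genes, 11 were tested, all 11 with log2 fold changes above 0 and 9 apart and higher in GFP-positive cells, beside 22.8% of all genes, and 2 passed (HBG2 and KEL). Their summed level was 550 and 365 TPM in GFP-positive libraries against 67.6 and 65.9 TPM, with HBB and AHSP at 0 in all libraries. Of 12 hematopoietic genes, 7 were apart with higher and 1 with lower levels in GFP-positive cells (66.7%, beside 44.3% of all genes). Of these 12, 2 passed (MYB and GFI1). Because SMARCD3 and DPF3 are known from heart, 14 cardiac genes were added after these values had been seen. Of the 11 tested, 5 were apart with higher and 1 with lower levels in GFP-positive cells (54.5%, beside 44.3% of all genes). They summed to 467 and 367 TPM against 132 and 137 TPM, most of it MYL4 (365 and 314 TPM against 74.8 and 97.2 TPM), the only one that passed (limma adjusted p = 0.0316). HAND1 (26.4 and 9.97 TPM against 2.97 and 2.51 TPM), ACTC1 (23.8 and 18.4 TPM against 6.23 and 3.52 TPM), TNNI1 and MYH6 were the others apart and higher, the last 2 at no more than 6.62 TPM. NKX2-5 was the 1 apart and lower, with 8.59 and 7.49 TPM against 18.4 and 12.7 TPM. Groups overlapped for the other 5 tested, and MYH7, NPPA and TTN were too low to be tested. Of 10 mesenchymal genes, 0 passed, 7 overlapped and 3 were apart, all higher in GFP-positive cells (30.0%, beside 22.8% of all genes). Summed, the 10 had 1068 and 971 TPM against 589 and 673 TPM. Of 9 pluripotency genes, 6 were tested and 0 passed. Of these 6, 3 were apart with higher and 1 with lower levels in GFP-positive cells (66.7%, beside 44.3% of all genes). Their log2 fold changes ran from -2.60 (POU5F1) to 1.00 (ZFP42). Of 8 neural genes, 3 were tested and 0 passed, with SOX1 and NEUROD1 at 0 in all libraries. The part of such cells or genes in the subunit values was not tested.

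Other genes of the same pathways gave 0 of 50 tested past the threshold in limma. At an unadjusted p under 0.05 there were 5 of 50, beside 14.1% of all genes. All 5 belong to the PRC1 list, which holds 26 of the 50 and had a median log2 fold change of 0.05. Groups on that list were apart for 9 with higher and 6 with lower levels in GFP-positive cells, beside 22.8% and 21.5% of all genes. SCMH1, a partner of canonical PRC1, had 32.0 and 33.6 TPM against 63.4 and 53.5 TPM (log2 fold change -0.81 ± 0.21; limma adjusted p = 0.181). Its relative SCML1 had 1.94 and 3.33 TPM against 9.48 and 6.30 TPM, and AUTS2, of a variant complex, had 34.92 and 29.02 TPM against 61.2 and 42.3 TPM. These 3 were lower in GFP-positive cells, as PHC2 and CBX2 were. The casein kinase genes CSNK2A1 (185 and 207 TPM against 159 and 140 TPM) and CSNK2A2 (98.1 and 97.8 TPM against 75.1 and 70.4 TPM), whose products join variant PRC1, were higher. In the lists of other PRC2, PR-DUB and SWI/SNF genes the largest differences were those of LCORL (-0.75), KDM1B (0.38) and BICRA (0.62), none of which passed. Of the 10 other SWI/SNF genes tested, 6 had a log2 fold change above 0. Groups were apart for 2 with higher and 1 with lower levels in GFP-positive cells (30.0%, beside 44.3% of all genes). The lower one was PHF10 (-0.32). KDM6A, which removes the PRC2 mark, had 62.6 and 33.8 TPM against 30.3 and 24.7 TPM (0.73 ± 0.34; limma adjusted p = 0.411).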

How the data were processed

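RNA of 4 libraries, 2 GFP-positive and 2 GFP-negative, was sequenced, from Trizol RNA with a TruSeq kit per the labels' protocols. The authors deposited 1 table per library of TPM values, made with RSEM per the submitters' processing notes. The headers name no unit, so TPM is inferred from RSEM and from sums of 996323.64 to 997292.9 per table. Bowtie and RSEM are named in the submitters' processing notes, as are the builds hg19 and mm10, without roles. Groups and replicate numbers came from the titles. Limma 3.58.1 in R 4.3.3 was fitted to log2(TPM + 1), with a variance trend and no covariate, after keeping genes that reached 1 TPM in 2 or more libraries. P-values were two-sided, adjusted by Benjamini-Hochberg over 15425 genes, threshold 0.05. The script was tested on simulated data. Gene models were matched by identifier (46 of 47 members) to GENCODE v29 and promoters by symbol (40 of 47) to RefSeq. Listed genes without their present symbol were matched by identifier or older symbol.

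Members and lists were chosen with earlier results of these data known, and the cardiac list and the overlapping genes after values were seen. By rule, per-library values were given for catalytic subunits, for members with an absolute log2 fold change of at least 0.5 and groups apart, and for the members nearest to 0 in the PRC2 core and the SWI/SNF core. Of the other pathway lists, the rule took genes with an unadjusted p under 0.05 or, failing any, the gene with the largest difference. RBBP4, RBBP7, MTF2, PCGF3, CBX7, PHC1, SMARCD1, DPF2, ARID1A, KDM2B, BCOR, PHF10, MKI67, CDH5, NKX2-5, HAND1, ACTC1 and MYL4 fall outside it and were chosen after their values were seen. Alternatives were another pseudocount, no filter, a mean above 5 TPM, no trend, 2 scalings, a replicate block, summed repeated symbols and each library left out. Levels of PECAM1, the gene of CD31, are not analysed here.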

Additional observations from a re-analysis of the deposited data

How the results depend on the processing

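Over all genes, limma called 69. It called 0 when 0.1 was added in place of 1, 0 without a filter and 0 without a variance trend, where 2101, 2386 and 2072 genes had an unadjusted p under 0.05. It called 164 with a mean above 5 TPM, and 18 to 65 with a library left out, the 18 without GFP-negative replicate 1. Among the subunit genes the count of 0 held except with a mean above 5 TPM and with the replicate block, where limma called 1, SMARCD3. With the replicate number as a block, limma called 596 genes over all. Deviations of same-numbered libraries correlated at 0.0719, with 2 pairs only, a value that does not show whether the numbers pair the libraries. The labels give no shared origin. At an unadjusted p under 0.05, subunit genes numbered 5 to 8 in all settings. The PRC1 median was -0.16 with a mean above 5 TPM and -0.285 to 0.076 with a library left out. With a mean above 5 TPM, 43 members were tested, and CBX6 and CBX7, both above 0 in the main fit, were not. The PRC2 median was -0.099 to 0.172 and that of SWI/SNF 0.092 to 0.225 with a library left out, and SWI/SNF had 0.11 with upper quartile scaling. The cause of the shifts with another scaling or with a library left out was not tested.

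Directions near 0 turned for PHC3 and BAP1, at -0.036 and -0.039 with upper quartile scaling and -0.019 and -0.021 with median-of-ratios scaling. With a library left out in turn, the sign of the log2 fold change was not stable for EZH1 (-0.618 to 0.596), EZH2 (-0.063 to 0.059), EED (-0.626 to 0.584), SUZ12 (-0.315 to 0.143), JARID2 (-0.131 to 0.053), PHF1 (-0.002 to 0.197), PHF19 (-0.135 to 0.638), RING1 (-0.030 to 0.248), BMI1 (-0.484 to 0.917), PCGF5 (-0.531 to 0.219), PHC3 (-0.285 to 0.292), ASXL1 (-0.197 to 0.026), ASXL2 (-0.069 to 0.624), BAP1 (-0.191 to 0.196), SMARCC1 (-0.083 to 0.081), SMARCE1 (-0.065 to 0.225), ARID1A (-0.233 to 0.220), DPF1 (-0.288 to 0.759), PBRM1 (-0.011 to 0.335), BRD7 (-0.304 to 0.092), BRD9 (-0.184 to 0.092). The values of SMARCD3, SMARCA2, DPF3, DPF2, PCGF1, CBX2 and PHC2 kept their sign in every setting in which they were tested. Read depth is not kept in TPM, so how far counting error limits CBX6, CBX7, DPF1, DPF3 and SMARCA2, all with values under 5 TPM, cannot be given.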
